A study of Mus musculus with 2 samples.

Results

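H3K4me3, the trimethylation of histone H3 at lysine 4 that marks active promoters, was described at 10 genes of iron, heme and oxidant handling in unstimulated macrophages. The 10 genes are a named set (Hmox1, Fth1, Ftl1, Slc40a1, Slc11a1, Tfrc, Nfe2l2, Keap1, Bach1 and Gclm). They stand among 21938 protein-coding genes of the GENCODE M21 annotation. The set and the pathway and marker lists used below were chosen with earlier results of these data known. Shares and widths set against all genes are therefore descriptive and no independent evidence about the set. A peak was assigned to a gene when it lay within 5000 bp of any annotated transcript start of that gene, a rule that uses no peak value. The data are ChIP-seq peak lists from mouse bone marrow-derived macrophages of strain C57BL/6J, cells grown from marrow, here with no stimulation. There was 1 group of 2 biological replicates, and each library started from 10 ng of DNA. The labels list a separate preparation of cells for each replicate, tie both to the same donor entry and record no sex or age. Separate animals are not stated, so the spread between replicates may be technical. With no second condition, all values below are descriptions and no test was run.

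Macrophages take up iron with transferrin and recover it from the hemoglobin of engulfed red cells. Heme oxygenase opens the heme ring, ferritin stores the freed iron, and ferroportin exports it. NRF2, a transcription factor held in check by KEAP1, drives antioxidant genes through antioxidant response elements, and BACH1, a repressor that binds heme, occupies the same elements until heme releases it.

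Replicate 1 held 20031 peaks over 25.5 Mb and replicate 2 held 16376 peaks over 17.8 Mb. The median authors' fold per peak was 21.7 in replicate 1 and 10.7 in replicate 2, so folds were read only within a list. This fold is a value the authors gave each peak, and the lists do not say against what it was measured. The authors also deposited a pooled list of 18898 peaks and a replicated list of 16957 peaks, both made from the 2 replicates together. No read counts were used, so depth is unknown. Peaks in both replicates lay at 10 of 10 macrophage markers and at 1 of 10 B and T cell markers, which was Cd3d. Such peaks lay at 0 of 8 granulocyte markers and at 0 of 8 fibroblast and endothelial markers. The share over all protein-coding genes was 51.7%. Among erythroid markers, Klf1 and Epor had a peak in both replicates, and the globin genes Hbb-bt, Hbb-bs and Hba-a1 had none listed. What part other cells had in the values below was not tested.

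The DNA just upstream of 3 of the genes is shown because the peaks of Nfe2l2 and Ftl1 break off there and those of Gclm in both replicates leave it bare. Sequences are the 250 bases before the RefSeq start on GRCm38.p6, written 5′ to 3′ on the gene's strand. Of the 10 genes, 8 matched the promoter table, with 10 promoters in all, and Hmox1 and Slc40a1 had no entry. In the first pair, which are Nfe2l2 (chr2:75704664-75704913, minus strand) and Gclm (chr3:122245307-122245556, plus strand), capitals mark a match to TGACNNNGC, the core of the antioxidant response element, searched on both strands. In Ftl1 (chr7:45459887-45460136, minus strand), capitals mark the bases that lay outside the peaks of both replicates.
Nfe2l2: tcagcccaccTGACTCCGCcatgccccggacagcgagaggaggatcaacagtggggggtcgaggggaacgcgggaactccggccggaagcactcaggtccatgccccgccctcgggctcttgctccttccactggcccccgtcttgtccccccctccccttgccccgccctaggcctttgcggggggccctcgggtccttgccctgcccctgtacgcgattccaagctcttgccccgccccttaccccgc
Gclm: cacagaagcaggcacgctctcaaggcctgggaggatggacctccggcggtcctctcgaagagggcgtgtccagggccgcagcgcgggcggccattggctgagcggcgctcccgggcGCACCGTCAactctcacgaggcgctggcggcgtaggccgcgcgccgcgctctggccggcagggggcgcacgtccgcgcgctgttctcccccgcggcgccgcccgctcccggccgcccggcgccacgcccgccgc
Ftl1: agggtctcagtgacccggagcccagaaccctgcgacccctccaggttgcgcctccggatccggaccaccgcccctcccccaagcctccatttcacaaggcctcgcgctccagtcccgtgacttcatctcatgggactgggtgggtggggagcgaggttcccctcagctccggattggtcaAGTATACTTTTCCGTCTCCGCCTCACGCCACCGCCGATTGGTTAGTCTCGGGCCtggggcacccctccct
The core matched in 2 of the 10 promoters, those of Nfe2l2 and Gclm, against 10.2% of the 32851 promoters in the table. The match at Nfe2l2 read along the gene, from -240 to -232 bp of the RefSeq start, and the match at Gclm read on the other strand, from -134 to -126 bp. GGGCGG, a GC box, matched on either strand in 7 of the 10 promoters, against 32.7% of all promoters. CACGTG, an E-box, matched in 0 of the 10, against 6.02%. These sets are unlike, because the 10 promoters belong to genes with H3K4me3 peaks and the 32851 were not limited to such genes. The windows of the Tfrc promoters also overlap each other. No antioxidant response element core overlapped a GC box. A match is a string of letters and not a bound site. Of the 250 bases at Gclm, 0 lay in a peak of replicate 1 and 0 in a peak of replicate 2. At Nfe2l2, 165 of the bases lay in peaks of replicate 1 and 94 in peaks of replicate 2, and at Ftl1 these numbers were 196 and 130.

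All 10 genes carried H3K4me3. A peak lay within 5000 bp of a start in both replicates at 10 of 10 genes, against 51.7% of protein-coding genes. Replicate 1 alone marked 10 of 10 genes, against 56.1% of protein-coding genes, and replicate 2 alone 10 of 10, against 51.7%. The pooled list marked 10 of 10 genes, against 55.1%, and the replicated list 10 of 10, against 53.6%. The peaks of these genes had the same positions and folds in the pooled and the replicated list. Within 1000 bp of a start, all 10 were still marked in both replicates, against 49.5% of protein-coding genes. Marking thus did not separate the genes from each other, whereas width, fold and position did.

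**Figure D1:**
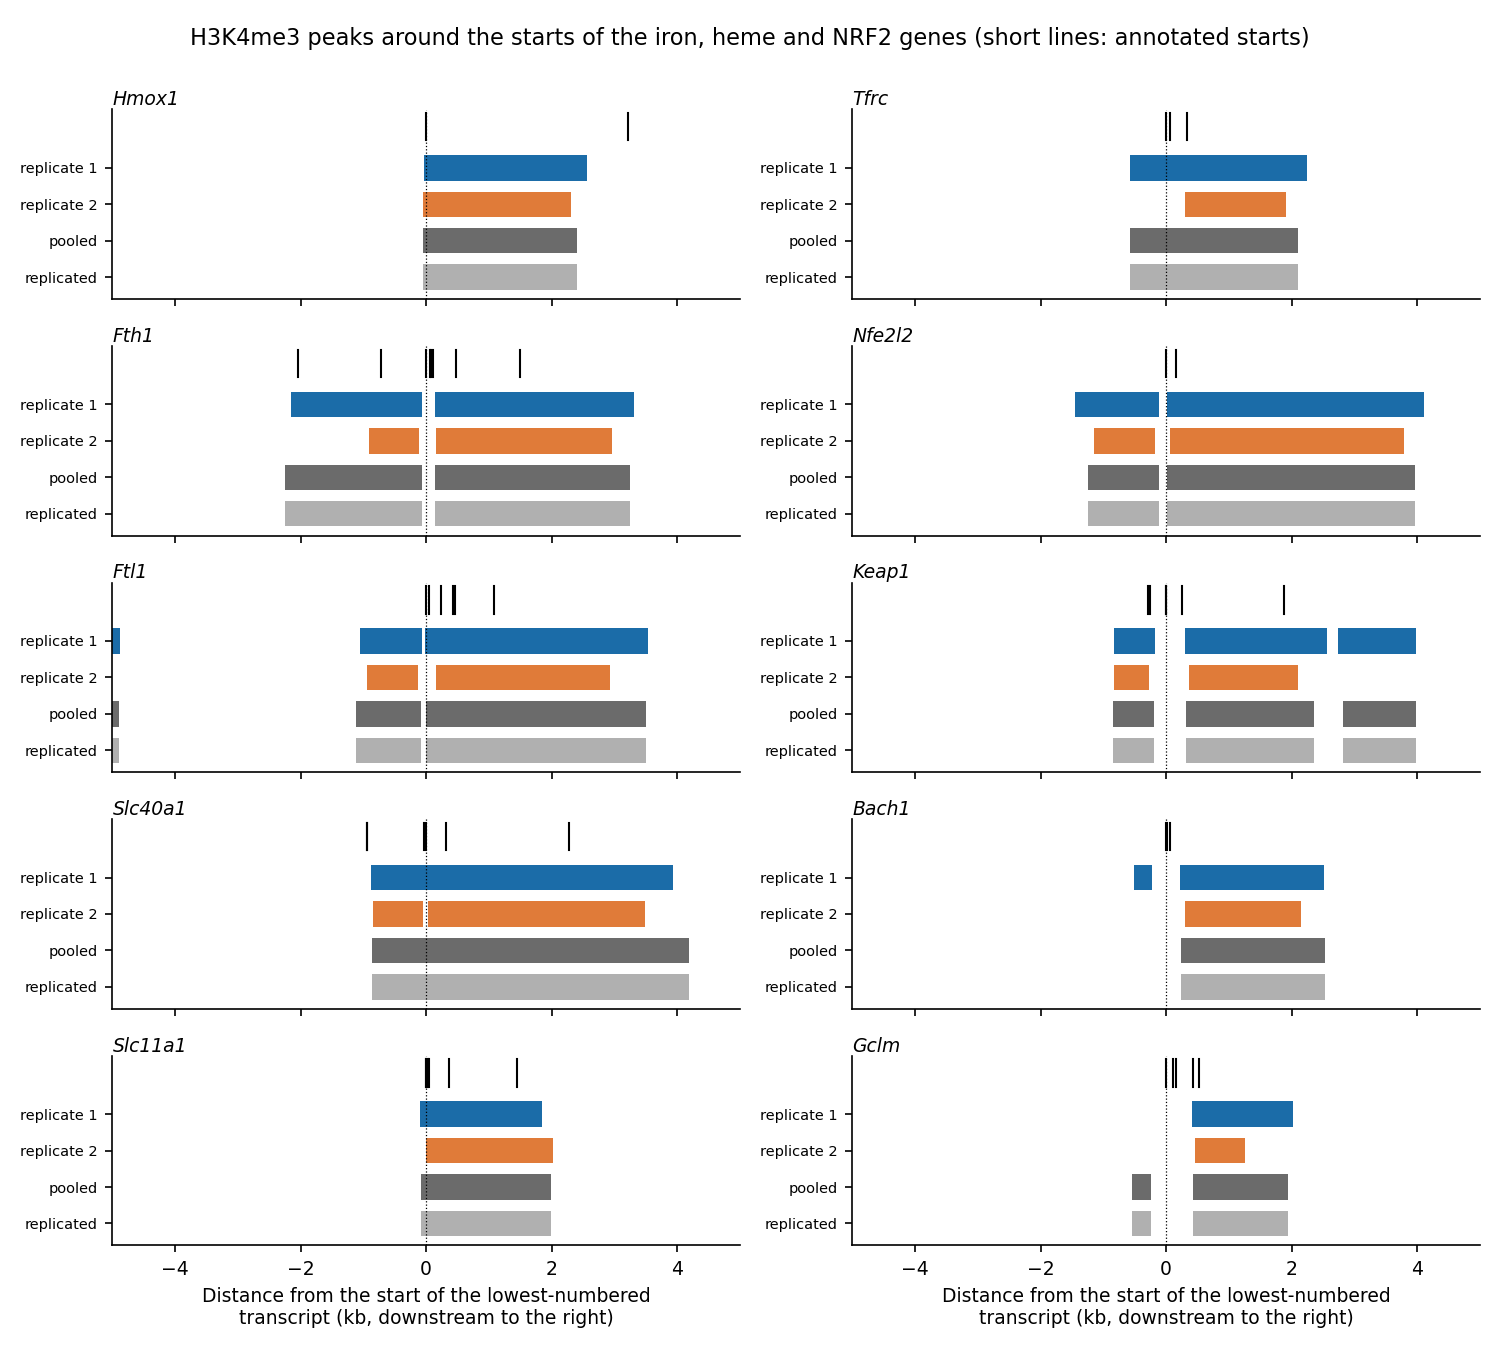
H3K4me3 peaks (bars) of the 4 peak lists around each gene. The horizontal axis is the distance in kb from the start of the gene's lowest-numbered transcript, with transcription running to the right, and short black lines mark all annotated starts. At Nfe2l2, Fth1 and Keap1 every list has a break at the start, whereas the single peak of Hmox1 begins just upstream of it and runs to 2569 bp in replicate 1.

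The map of peaks shows how the marks sit on each gene. Distances are given from the main start, that of the lowest-numbered transcript of the gene in the annotation, with negative values upstream. Peaks at most 1000 bp apart were joined into a domain, and the widest domain that reached within 1000 bp of a start was measured in each replicate. The mean width over the replicates had a median of 3179.5 bp over the 10 genes, with quartiles of 2272.4 and 4491.4 bp. Over the 10869 protein-coding genes with a domain in both replicates, the median was 1946.5 bp, with quartiles of 1430.5 and 2546.5 bp. Of the 10 genes, 9 lay above that median, and Gclm was the exception. Of the 10 genes, 5 had a mean width of at least 3000 bp, against 14.0% of genes with a domain. Domains were wider in replicate 1 at 9 of the 10 genes, against 98.7% of genes with a domain, so that offset is shared by nearly all promoters. The median width of the 10 genes was 3811.5 bp in replicate 1 and 2652 bp in replicate 2, against 2149 and 1741 bp over all genes with a domain.

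**Figure D2:**
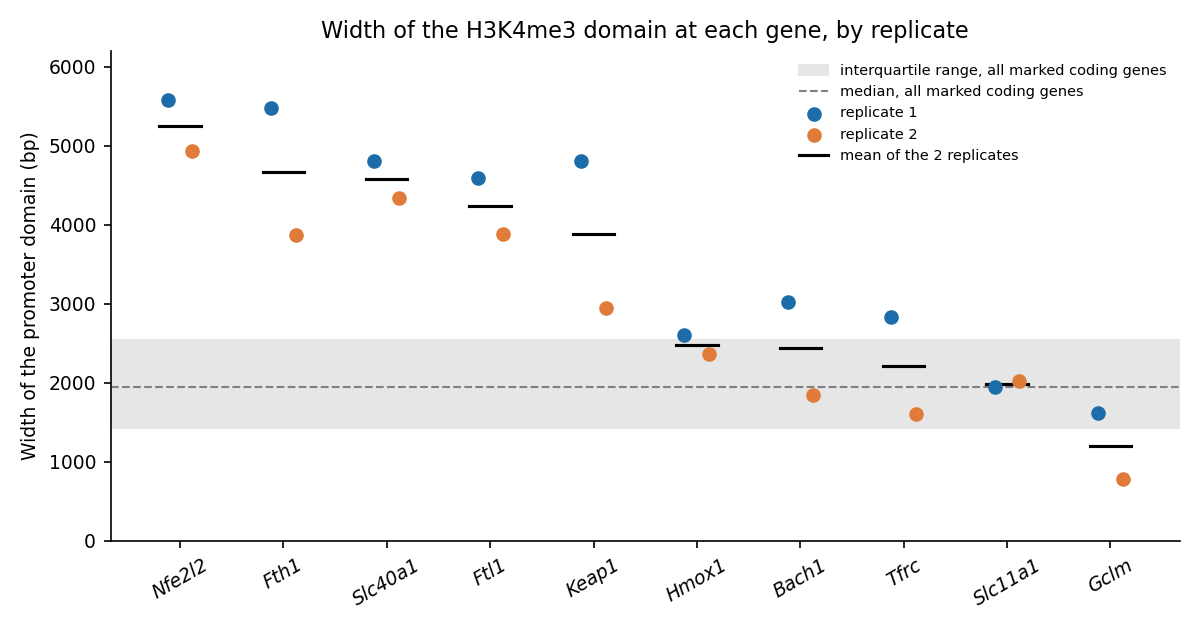
Width in bp of the H3K4me3 domain at each gene in replicate 1 and replicate 2 (points), with the mean of both (black line), ordered by the mean. The grey band and dashed line give the quartiles and the median over the 10869 protein-coding genes with a domain in both replicates. Nfe2l2, Fth1, Slc40a1, Ftl1 and Keap1 lie above the band in both replicates.

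In the plot of domain widths, the genes fell into the order Nfe2l2, Fth1, Slc40a1, Ftl1, Keap1, Hmox1, Bach1, Tfrc, Slc11a1 and Gclm. The first 5 of these were also the 5 widest in each replicate taken alone. Neighbours in this order had overlapping replicate values except at 2 places, between Keap1 and Hmox1 and between Slc11a1 and Gclm. Nfe2l2 was the widest in each replicate, and its values overlapped those of Fth1 alone.

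The fold gave another order. Each gene was given its highest peak fold within 5000 bp and the percentile of that fold among all protein-coding genes with a peak in the same list. The median highest fold of the 10 genes was 46.1 in replicate 1 and 18.5 in replicate 2, against 37.8 and 15.1 over all genes with a peak. Ftl1, Fth1 and Hmox1 were at or above the 75th percentile in both replicates, 3 of 10 genes against 21.9% of genes with a peak in both. Slc11a1 and Gclm were at or below the 25th percentile in both replicates, 2 of 10 genes against 18.4%. Neither share lies far from its background at this number of genes.

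**Figure D3:**
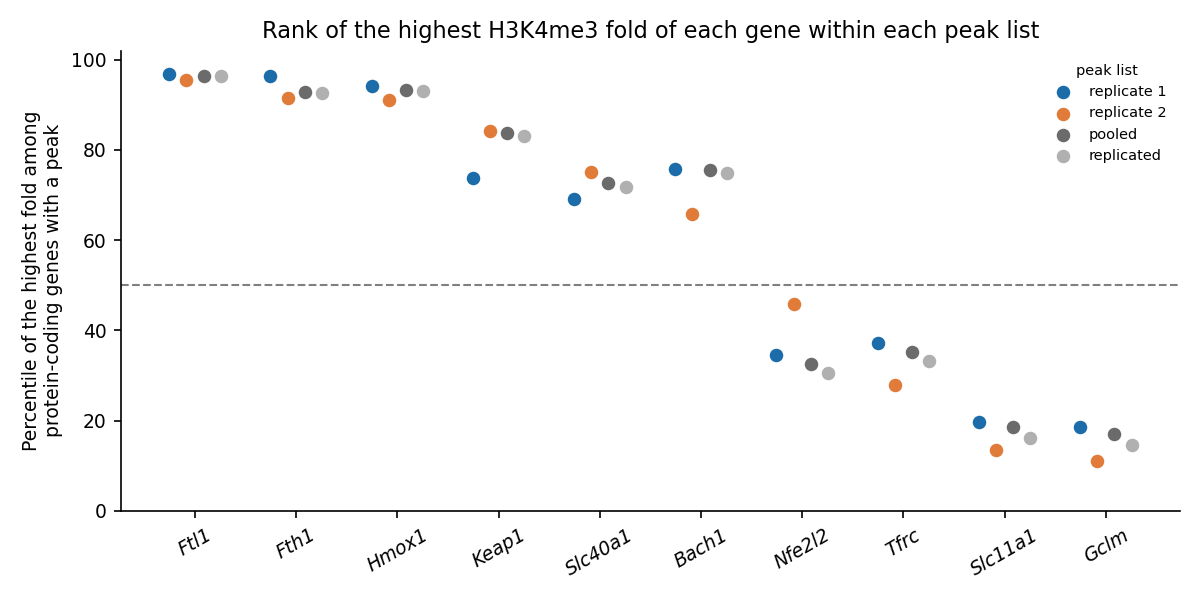
Percentile of each gene's highest peak fold among protein-coding genes with a peak, within each of the 4 peak lists (points), ordered by the mean of the 2 replicates. The dashed line is the 50th percentile. Ftl1, Fth1 and Hmox1 lie above 90 in every list, and Slc11a1 and Gclm below 20 in every list.

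Nfe2l2 encodes NRF2. It had the widest domain of the 10 genes, 5571 bp in replicate 1 and 4937 bp in replicate 2 (mean 5254 ± 448 bp, SD, n = 2), at the 98.6th percentile of genes with a domain. Its fold was not high. The highest fold was 30.3 in replicate 1 and 14.4 in replicate 2, at the 34.5th and 45.8th percentiles. The domain was made of a downstream peak of 4107 bp in replicate 1 and 3735 bp in replicate 2, mostly in introns, and an upstream peak of 1346 and 968 bp. A break of 118 bp in replicate 1 and 234 bp in replicate 2 lay between them and held the start in both. The upstream peak of replicate 1 also covered the start of E030042O20Rik, a noncoding transcript that runs the other way, so that its marking cannot be assigned to Nfe2l2 alone.

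Keap1 encodes the adaptor that hands NRF2 to a ubiquitin ligase. Its domain measured 4806 bp in replicate 1 and 2946 bp in replicate 2 (mean 3876 ± 1315 bp, SD, n = 2), the largest spread among the 10 genes. The difference came with a further peak of 1238 bp and fold 6.54 in replicate 1, and replicate 2 listed no peak there. The pooled and replicated lists held that peak, at 1168 bp and fold 4.26. The main peak, of 2261 bp in replicate 1 and 1743 bp in replicate 2, had folds of 47.0 and 21.2, at the 73.7th and 84.3rd percentiles. The break over the main start was the widest among the genes with peaks on both sides in both replicates. It measured 477 bp in replicate 1 and 631 bp in replicate 2. This main start lies inside the annotated gene, downstream of its 5′ end. Of the 250 bases before the RefSeq start of Keap1, 250 lay in peaks of replicate 1 and 247 in peaks of replicate 2.

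Bach1 encodes the heme-binding repressor. Its domain measured 3027 bp in replicate 1 and 1847 bp in replicate 2 (mean 2437 ± 834 bp, SD, n = 2). The main peak, of 2300 bp in replicate 1 and 1847 bp in replicate 2, lay wholly in introns, and all 3 annotated starts were outside every peak of both replicates. The folds were 47.8 and 17.7, at the 75.8th and 65.9th percentiles. A small upstream peak of 287 bp and fold 3.92 was listed in replicate 1 alone, and neither series-level list held it.

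Gclm encodes the modifier subunit of glutamate-cysteine ligase, the enzyme that sets the pace of glutathione synthesis, and is a known NRF2 target. In both replicates it had the narrowest domain and the lowest fold of the 10 genes. Its domain measured 1617 bp in replicate 1 and 788 bp in replicate 2 (mean 1202.5 ± 586 bp, SD, n = 2), at the 15.8th percentile. The highest fold was 19.4 in replicate 1 and 6.79 in replicate 2, at the 18.5th and 11.0th percentiles. Both peaks lay downstream of the start, beginning at 411 and 466 bp. The pooled and replicated lists added an upstream peak of 299 bp and fold 3.43, which widened the domain there to 2485 bp, at the 68.8th percentile in the pooled list and the 69.0th in the replicated list. In these lists Gclm was therefore not the narrowest, and Slc11a1 was, at 2073 bp.

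Hmox1 encodes heme oxygenase-1, the inducible enzyme that opens heme and a target of both NRF2 and BACH1. It carried a single compact peak of 2608 bp in replicate 1 and 2358 bp in replicate 2 (mean 2483 ± 177 bp, SD, n = 2), at the 73.0th percentile of width. The folds were 57.0 and 23.0, at the 94.1st and 91.0th percentiles, so both replicates placed it near the top of the marked genes. The peak reached only 38 bp upstream of the start in replicate 1 and 50 bp in replicate 2, and 98.5% and 97.9% of its bases lay downstream. The nearest peak further upstream was 25230 bp away in replicate 1 and 25278 bp away in replicate 2. The other annotated start of Hmox1, inside the gene, was in no peak.

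Fth1 and Ftl1 encode the heavy and light chains of ferritin, the shell that stores iron. They were the genes that combined the upper end of both measures. The Fth1 domain measured 5473 bp in replicate 1 and 3864 bp in replicate 2 (mean 4668.5 ± 1138 bp, SD, n = 2), at the 97.6th percentile. Its folds were 59.2 and 23.2, at the 96.5th and 91.6th percentiles. Peaks covered 95.4% of the gene in replicate 1 and 68.7% in replicate 2, and the downstream peak ran 864 and 503 bp past the 3′ end. The start lay in a break of 206 bp in replicate 1 and 270 bp in replicate 2. The spread in width came with the upstream peak, which measured 2094 bp with fold 28.0 in replicate 1 and 787 bp with fold 10.8 in replicate 2. This peak lay upstream of the main start but mostly inside the annotated gene. Only 108 bp of it in replicate 1 and 0 bp in replicate 2 preceded the gene.

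The Ftl1 domain measured 4596 bp in replicate 1 and 3882 bp in replicate 2 (mean 4239 ± 505 bp, SD, n = 2), at the 96.3rd percentile. Its folds of 59.6 and 24.8 were the highest of the 10 genes in each replicate, at the 96.8th and 95.5th percentiles. Ftl1 spans only 1941 bp, and peaks covered 100% of it in replicate 1 and 92.0% in replicate 2, running 1601 and 994 bp past the 3′ end. An upstream peak was much lower, with fold 12.9 in replicate 1 and 4.96 in replicate 2. The main peak also held the starts of the annotated transcripts Gm10252 and Gm22133. The peak at the start of Bax, a neighbouring gene, lay 4884 bp from an Ftl1 start in replicate 1 and 5473 bp in replicate 2, on either side of the 5000 bp limit, and it set neither the width nor the highest fold.

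Ferritin genes have near-identical processed copies, and how the authors treated reads that match several places is not given in the sources used here. The 5 annotated copies examined (Fth-ps2, Fth-ps3, Ftl1-ps1, Ftl1-ps2 and Ftl2-ps) overlapped 0 peaks in all 4 lists. The nearest peak to any of them was 8652 bp away, at Ftl1-ps1 in replicate 1. The annotation lists Ftl1-ps1 as protein-coding and the other copies as processed pseudogenes.

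Tfrc encodes the transferrin receptor, the route of iron uptake. Its domain measured 2828 bp in replicate 1 and 1607 bp in replicate 2 (mean 2217.5 ± 863 bp, SD, n = 2), at the 62.0th percentile. The folds were 31.8 and 11.0, at the 37.2nd and 27.8th percentiles. In replicate 1 the peak began at -580 bp and covered the start, whereas in replicate 2 it began at 303 bp and the start was outside. The pooled and replicated lists followed replicate 1, with a peak beginning at -576 bp.

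Slc11a1 encodes NRAMP1, the metal transporter of the phagosome membrane in macrophages. It was the only one of the 10 genes whose domain was not wider in replicate 1, at 1945 bp in replicate 1 and 2027 bp in replicate 2 (mean 1986 ± 58.0 bp, SD, n = 2). That width, at the 51.9th percentile, was about that of a typical marked gene. The fold was low, 20.6 in replicate 1 and 7.57 in replicate 2, at the 19.7th and 13.6th percentiles. A second peak past the 3′ end, of 1453 bp with fold 14.4 in replicate 1 and 1146 bp with fold 6.13 in replicate 2, lay 2842 and 2914 bp from an annotated start inside the gene. It held no annotated start.

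Slc40a1 encodes ferroportin, the iron exporter. Its domain was broad in both replicates, 4810 bp in replicate 1 and 4341 bp in replicate 2 (mean 4575.5 ± 332 bp, SD, n = 2), at the 97.3rd percentile. The folds were 45.2 and 19.3, at the 69.2nd and 75.1st percentiles. Replicate 1 listed a single peak, and replicate 2 listed peaks of 3473 and 791 bp with a break of 77 bp that held the start. Its neighbours in the list were distant, and the next peaks lay 926262 bp upstream and 129039 bp downstream of the start in replicate 1.

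The marks leaned downstream of the start. More peak bases within 5000 bp of the main start lay downstream than upstream in both replicates at 10 of 10 genes, against 71.5% of genes that could be measured. The median share of peak bases lying downstream was 83.1% in replicate 1 and 89.7% in replicate 2, against 63.6% and 65.3% over all genes. The summit of the highest peak lay downstream at 10 of 10 genes in both replicates, against 73.1% in replicate 1 and 73.3% in replicate 2. Summits sat closest to the start at Hmox1, at 234 bp in replicate 1 and 281 bp in replicate 2, and at Slc40a1, at 284 and 281 bp. The farthest summit was that of Nfe2l2, at 1464 bp in replicate 1 and 1345 bp in replicate 2.

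**Figure D4:**
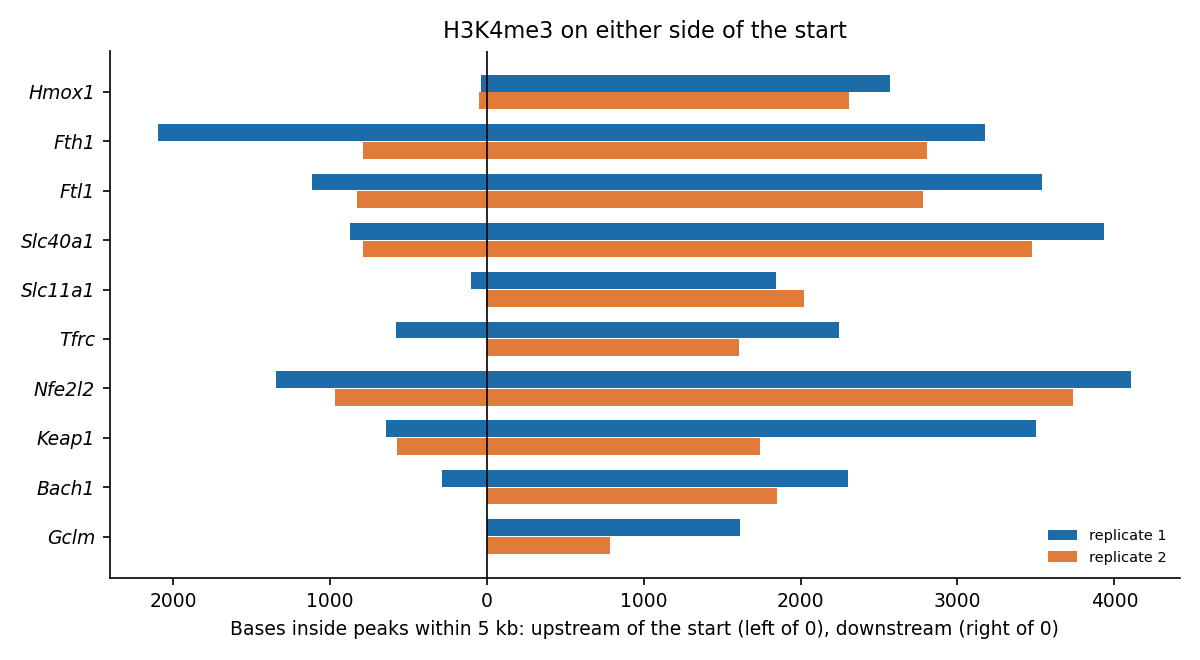
Bases inside peaks within 5 kb of the main start of each gene, in bp, upstream (left of 0) and downstream (right of 0), for replicate 1 and replicate 2. Every gene has the longer bar downstream in both replicates, and Gclm has no upstream bar. The upstream bar of Ftl1 in replicate 1 includes the near edge of the Bax peak.

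The main start itself lay outside every peak at 5 of the 10 genes in replicate 1, against 34.0% of genes with a domain, and at 8 of the 10 in replicate 2, against 50.7%. The 5 in replicate 1 were Fth1, Nfe2l2, Keap1, Bach1 and Gclm, and these were also outside in replicate 2, joined there by Ftl1, Slc40a1 and Tfrc. At each of these 8 genes except Bach1, peaks of both replicates held at least 1 other annotated start. Hmox1 and Slc11a1 had the main start inside a peak in both. At least 2 peaks within 5000 bp were listed at 6 of the 10 genes in replicate 1, against 51.5% of genes with a peak in both, and at 6 of the 10 in replicate 2, against 49.8%. These last 2 counts lie near their backgrounds. The counts of main starts outside every peak rest on only 10 genes, and whether they differ from their backgrounds was not tested.

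H3K4me3 is generally most abundant at promoters rich in CpG. The ratio of observed to expected CpG was taken in the window reaching 1000 bp to each side of the main start. Its median was 0.65 over the 10 genes, against 0.62 over genes with a domain and 0.47 over all protein-coding genes. Gclm had the most CpG of the 10, with a ratio of 0.92, at the 98.2nd percentile of all protein-coding genes, together with the lowest fold in every list and, in the 2 replicates but not in the series-level lists, the narrowest domain. Hmox1 had a ratio of 0.37, at the 42.0th percentile, together with a fold near the top. Slc11a1 had the least CpG, with a ratio of 0.25, and a low fold. Tfrc and Bach1 shared a ratio of 0.79 and stood at mean fold percentiles of 32.5 ± 6.61 and 70.9 ± 7.02 (SD, n = 2). Among these 10 genes the fold did not follow the CpG ratio in any single direction.

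**Figure D5:**
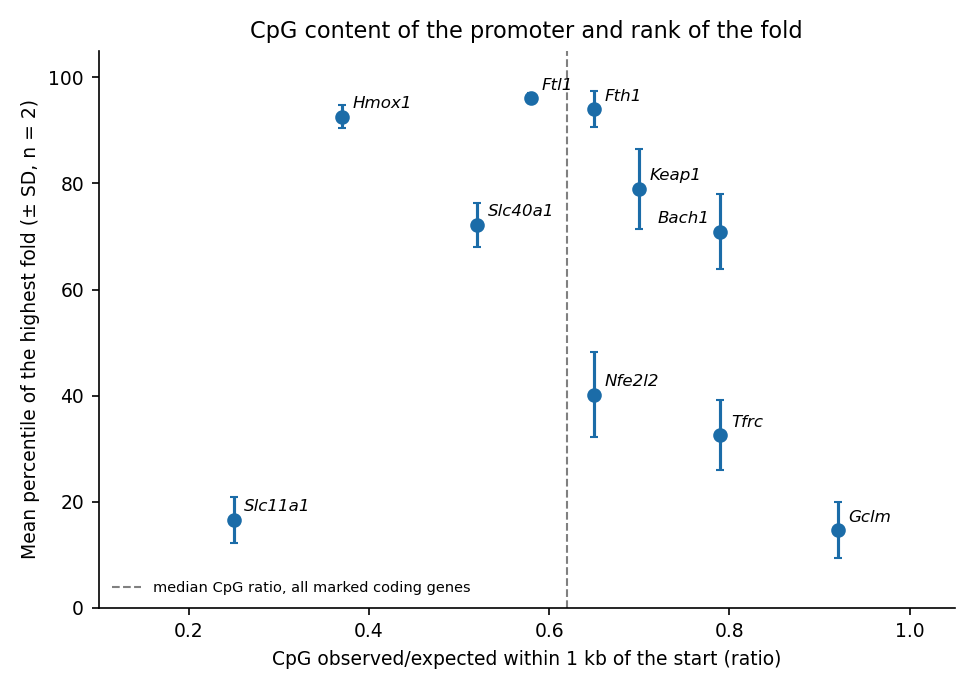
Mean percentile of the highest fold over the 2 replicates (vertical axis, bars are the SD, n = 2) against the CpG observed/expected ratio within 1 kb of the main start (horizontal axis) for the 10 genes. The dashed line marks the median ratio of genes with a domain, 0.62. Hmox1 pairs a low ratio with a high fold, and Gclm pairs the highest ratio with the lowest fold.

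Further genes of the same pathways were less uniformly marked. Of 27 genes of iron handling, 17 had a peak in both replicates (63.0%), and of 23 genes of heme handling 19 did (82.6%). Of 35 genes of the NRF2 pathway 30 did (85.7%), against the 51.7% of all protein-coding genes given above. The 17 include Lcn2, whose nearest peaks lay 3426 bp away in replicate 1 and 3530 bp in replicate 2. Its peaks held the start of 1110008P14Rik, and it had no domain. The 30 include Bach2, which had no domain in replicate 2, where its nearest peak lay 2086 bp away. The median domain width was 2036.5 bp for iron handling, 1993.5 bp for heme handling and 1989.5 bp for the NRF2 pathway, all close to the 1946.5 bp of all genes with a domain and below the 3179.5 bp of the 10 genes. The macrophage markers had a median of 3029.2 bp.

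In iron handling, 9 genes had no listed peak in either replicate and 1 had a peak in replicate 1 alone. No peak was listed within 5000 bp in either replicate for Hamp, which encodes the liver hormone hepcidin, for its regulators Hjv, Bmp6 and Tfr2, or for Heph, Cybrd1, Ftmt, Steap4 and Slc25a37. Slc25a37 lies in a stretch without listed peaks, with the nearest 421581 bp away in replicate 1, and nothing is drawn from it. Cp, which encodes the ferroxidase ceruloplasmin, had a peak in replicate 1 alone, with fold 3.36. The widest domains of this list were those of Pcbp1, an iron chaperone, at 4395 ± 228 bp, of Ncoa4, the receptor that delivers ferritin for degradation, at 4066 ± 1161 bp, and of Slc25a28, a mitochondrial iron carrier, at 3489.5 ± 149 bp (SD, n = 2 each). Ncoa4 also had the highest mean fold percentile of the list, 83.7, followed by Nfs1, a cysteine desulfurase of iron-sulfur cluster assembly, at 75.4, and Slc25a28 at 66.6. The peaks of Nfs1 also held the start of Romo1.

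In heme handling, the 4 genes without a listed peak were Alas2, the erythroid form of the first enzyme of heme synthesis, Hpx and Hp, which encode the plasma scavengers hemopexin and haptoglobin, and Spic, a transcription factor of red pulp macrophages. The nearest peak to a start of Spic lay 45223 bp away in replicate 1. The widest domains were those of Lrp1, the hemopexin receptor, at 4910.5 ± 446 bp, of Flvcr1, a heme exporter, at 3220 ± 639 bp, and of Tspo, a mitochondrial membrane protein, at 2988.5 ± 603 bp (SD, n = 2 each). Tspo led in mean fold percentile at 86.3, followed by Alad, an enzyme of heme synthesis, at 85.1 and Hmox2, the constitutive heme oxygenase, at 74.9. The peaks of Tspo and Alad also held starts of other coding genes.

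In the NRF2 pathway, Gpx2, Nfe2l3, Gsta1 and Gsta2 had no listed peak within 5000 bp in either replicate, and Me1 had a peak in replicate 1 alone, with fold 5.23. The widest domains were those of Mafg, a small MAF partner of NRF2, at 5502 ± 1151 bp, of Prdx1, a peroxiredoxin, at 3884 ± 1068 bp, and of G6pdx, the first enzyme of the pentose phosphate pathway, at 3552.5 ± 639 bp (SD, n = 2 each). The peaks of Mafg also held the start of Sirt7, and those of G6pdx the start of Ikbkg. The highest mean fold percentiles were those of Cat, which encodes catalase, at 82.4, of Cul3, the scaffold of the ligase that KEAP1 serves, at 78.3, and of Txn1, which encodes thioredoxin, at 77.5. All of these stood below the 96.1, 94.0 and 92.6 of Ftl1, Fth1 and Hmox1.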

How the data were processed

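H3K4me3 ChIP-seq peak lists of 2 replicates of unstimulated macrophages were used, with 2 series-level lists. The build is mm10 per the labels. According to the deposited provenance texts, the authors called a pseudoreplicated list for each replicate and, from both together, a pseudoreplicated (here pooled) and a replicated list. Each deposited peak carries a fold (ratio), −log10 p, −log10 q and a display score, of which the score was not used. For the aligner, peak caller and thresholds the entry is: not given in the sources used here. A control experiment that the labels name was not used here.

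Starts came from GENCODE M21 on 21 chromosomes, and 0 peak ends lay beyond a chromosome of GRCm38.p6, which is mm10. Distances, joining and percentiles were computed with Python 3.11.15, numpy 2.4.6 and pysam 0.24.0 and tested on simulated data. Promoter sequences are from RefSeq (GRCm38.p6). The alternatives were other distances, starts, lists, joining distances, the 15000 strongest peaks, an overlap of 50% and single replicates. The genes and the pathway and marker lists were chosen with earlier results of these data known. The text names all 10 genes and, per pathway list, the genes not marked in both replicates, the 3 widest domains and the 3 highest mean fold percentiles. Depth is unknown, so no precision from depth is given.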

Additional observations from a re-analysis of the deposited data

How the results depend on the processing

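The count of marked genes was 10 at 1000 and 2500 bp, with the 5′ end of the gene or coding starts alone, in both series-level lists, among the 15000 strongest peaks and in each replicate alone. It was 9 when peaks of the replicates had to overlap by 50% of the longer one, which Gclm missed. The median width of 3179.5 bp was 2350.2 bp with no joining of peaks, a change that follows from measuring the single peaks of broken domains. It was 3652 bp in the pooled and the replicated list, 2823.8 bp among the 15000 strongest peaks, 2483 bp with the 5′ end alone (9 genes with a value) and 3179.5 bp with joining over 3000 bp. With 1 replicate left out at a time it ranged from 2652 to 3811.5 bp. The median over all genes with a domain is not given without joining. The 2350.2 bp therefore cannot be set against the 1946.5 bp, which was measured with joining. Of 89 alternative widths of single genes, 78 stayed within 1 SD between replicates and 11 moved further. Of 90 alternative fold percentiles, 89 stayed within 1 SD. The 1 that moved was Nfe2l2 in the replicated list, at 30.6. No paired analysis was possible because there is only 1 group. Depth is unknown, so the difference in the number of peaks between the replicates cannot be set against it.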
